A study of Mus musculus with 24 samples.

Results

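The immunoglobulin genes of mouse mesenteric arteries were described in 24 total RNA libraries. They are the rows of the expression table whose gene symbol names a constant (C), variable (V), diversity (D) or joining (J) piece of an immunoglobulin heavy or light chain. A row was kept when it had at least 1 read in at least 6 of the 24 libraries. This held for 143 of 201 immunoglobulin rows, out of 29020 gene rows in all. The 143 members comprise 7 constant genes, 63 V segments and 4 J segments of the heavy chain, 1 constant gene, 60 V segments and 4 J segments of the kappa light chain, and 1 constant gene and 3 V segments of the lambda light chain. Of the 8 members with reads in exactly 6 libraries, Ighv1-5 (45 reads), Igkv12-89 (39 reads) and Ighv1-59 (35 reads) had the highest levels. Of the 7 rows with reads in exactly 5 libraries, which were left out, Ighv1-63 (15 reads), Ighv9-1 (16 reads) and Ighv9-2 (10 reads) had the highest levels.

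The mice were males in 4 groups of 6, given tamoxifen at 1 mg/kg a day under the skin for 5 days from 10 to 12 weeks of age. The groups were ieET-1 killed 3 months after tamoxifen (long term), ieCre killed 3 months after, ieET-1 killed 16 days after (short term) and ieCre killed 16 days after. All 24 mice carried a tamoxifen-inducible Cre recombinase driven in endothelial cells by the Tie2 promoter, and the ieET-1 mice also overexpressed human endothelin-1, a vasoconstrictor peptide, in the endothelium. Long-term mice were also older when killed, so that time since tamoxifen and age cannot be told apart. The arteries were taken without attached intestine and cleaned of fat and veins, and each library came from 1 mouse, named here by its animal ID. The animal IDs fall into 2 ranges at each time (1 to 3 digits and 4 digits at the short term, 80xx to 81xx and 94xx at the long term). These ranges were drawn within each time: by number alone, the short-term 4-digit IDs, 8754 to 9958, enclose the long-term 94xx IDs.

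Immunoglobulins are made by B cells and, in large amounts, by plasma cells, and not by the muscle or endothelial cells of an artery. A heavy chain gene is assembled in each B cell from a V, a D and a J segment, and a light chain gene from a V and a J segment. The joined piece is then spliced to a constant region, which sets the class: Ighm for IgM, the Ighg genes for IgG, Ighe for IgE and Igha for IgA. Each B cell clone thus carries its own joined V segments, and a plasma cell of a mucosal tissue mostly makes IgA.

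Levels are reads divided by an effective library size, on a scale near CPM, and called values below. Library totals were 9635250 to 16181605 reads, with a median of 13017255, and 3 reads correspond to a value of 0.177 to 0.461. Members together held 0.00381% of the reads in mouse 9955, the lowest, and 0.0431% in mouse 10, the highest, both short-term ieCre mice. Mice 9955, 9491, 8135 and 8136 had over 10% of their reads on Gm42418, which overlaps ribosomal RNA sequence, and mouse 9489 (long-term ieET-1) had reads on the most genes, 24399. In mouse 9955 Gm42418 held 26.6% of all reads, which lowers its immunoglobulin share. By summed value of the constant genes, mouse 8992 (short-term ieET-1) was lowest at 28.0, against 45.0 in mouse 9955. Mouse 8135 (long-term ieET-1) also stood apart for intestinal epithelial transcripts. Its value of Pigr, the receptor that carries IgA across epithelium, was 226, against at most 1.86 in the other 23 libraries, and that of Vil1, a brush border protein, was 20.6. Summed values of 6 smooth muscle genes were 8526 to 19897 and of 6 endothelial genes 1453 to 3239, so the labelled tissue was present in every library.

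All members lie in 3 loci on GRCm38, in the GENCODE annotation: the heavy chain locus on chromosome 12 (113254830 to 116000461), the kappa locus on chromosome 6 (67555497 to 70726966) and the lambda locus on chromosome 16 (19085017 to 19260859). The J segments show what joins V to C, and are printed whole, 5′ to 3′ on the coding strand. Capitals mark the conserved core, which in heavy chain J segments is TGGGG and AGG with any 3 bases between (found in 4 of 4) and in kappa J segments TTCGG and GG with any 4 bases between (found in 4 of 5). Igkj1 itself, with 6 reads in 5 libraries, is just outside the set.
Ighj1: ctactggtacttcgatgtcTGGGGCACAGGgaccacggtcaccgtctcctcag
Ighj2: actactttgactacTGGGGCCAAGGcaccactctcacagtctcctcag
Ighj3: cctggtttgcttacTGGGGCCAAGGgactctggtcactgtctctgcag
Ighj4: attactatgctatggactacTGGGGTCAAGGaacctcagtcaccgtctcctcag
Igkj1: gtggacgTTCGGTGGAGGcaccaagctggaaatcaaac
Igkj2: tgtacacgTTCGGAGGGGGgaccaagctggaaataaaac
Igkj3: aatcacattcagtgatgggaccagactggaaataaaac
Igkj4: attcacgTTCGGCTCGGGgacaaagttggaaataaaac
Igkj5: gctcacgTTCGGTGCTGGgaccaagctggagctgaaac
Igkj3 has no match to the core, and mouse Igkj3 is known as a segment that does not give functional chains.

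V segments end in a conserved codon run before the joint. The run was searched on the coding strand as TATTACTGT, TATTACTGC, TATTTCTGT or TATTTCTGC, 4 versions of the same codons. It lies in the last 90 bases of 105 of the 126 V members (83.3%) and of 169 of all 218 annotated V transcripts (77.5%). The last 90 bases are shown for the V segments that the values below turn on: Igkv6-23, which differed by time in ieCre arteries, Ighv1-81 and Iglv1, which led their chains, and Ighv1-22, held mostly by 1 mouse. Capitals mark the codon run.
Igkv6-23: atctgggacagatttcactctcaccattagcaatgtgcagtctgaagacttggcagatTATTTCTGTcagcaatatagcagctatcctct
Ighv1-81: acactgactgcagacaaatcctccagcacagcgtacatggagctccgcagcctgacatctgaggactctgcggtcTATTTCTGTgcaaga
Ighv1-22: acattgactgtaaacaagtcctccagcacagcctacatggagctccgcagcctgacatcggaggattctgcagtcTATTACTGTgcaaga
Iglv1: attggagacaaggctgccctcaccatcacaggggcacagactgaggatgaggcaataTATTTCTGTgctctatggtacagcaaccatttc
Among the V segments shown here and below, the coordinates are chr6:70260409-70260955 on the minus strand for Igkv6-23, chr12:115920279-115920712 on the minus strand for Ighv1-81 and chr6:68121046-68121827 on the plus strand for Igkv1-117.

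The leading kappa segments Igkv1-117 and Igkv1-110 are near copies, which shows how far reads can be shared between V segments. Their last 300 bases are identical at 96.7% of positions, and capitals mark the 10 bases that differ.
Igkv1-117: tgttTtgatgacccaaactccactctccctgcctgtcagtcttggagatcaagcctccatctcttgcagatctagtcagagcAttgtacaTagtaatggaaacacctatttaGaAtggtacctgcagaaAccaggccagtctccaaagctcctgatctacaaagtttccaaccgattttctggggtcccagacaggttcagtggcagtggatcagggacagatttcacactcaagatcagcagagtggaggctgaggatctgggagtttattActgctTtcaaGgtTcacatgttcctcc
Igkv1-110: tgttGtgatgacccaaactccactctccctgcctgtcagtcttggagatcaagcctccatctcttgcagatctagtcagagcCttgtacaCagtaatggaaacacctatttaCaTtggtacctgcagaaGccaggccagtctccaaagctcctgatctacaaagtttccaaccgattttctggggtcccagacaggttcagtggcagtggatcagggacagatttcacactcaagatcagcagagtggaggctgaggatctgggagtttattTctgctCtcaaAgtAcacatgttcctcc
Over 280 bases, Igkv6-23 was 96.1% identical to Igkv6-13, Iglv1 97.5% to Iglv2, Ighv1-22 96.4% to Ighv1-34 and Ighv1-81 92.5% to Ighv1-85. How reads that match several segments were counted is not given in the sources used here, so the value of a single V segment is uncertain. Lambda constant sequences were not compared, so whether the same holds for Iglc2 was not tested.

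Among the constant genes, the level per kilobase of gene model, averaged over the 24 libraries, was highest for Igkc (41.6), the kappa light chain. It was followed by Ighm (23.7), Igha (16.6), Iglc2 (2.25), Ighg2b (1.28), Ighg2c (1.27), Ighg1 (0.558), Ighe (0.131) and Ighg3 (0.0534). Ighm and Igha together supplied most heavy chain reads in all 24 libraries. In bulk tissue, fewer cells and less RNA per cell cannot be told apart.

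Ighm (chr12:113418558-113422730), the IgM heavy chain, had values of 40.8 to 77.1 in long-term ieET-1 arteries (median 62.4) and of 43.0 to 84.6 in long-term ieCre arteries (median 66.0). At the short term it was 13.7 to 32.9 in ieET-1 arteries (median 20.5) and 18.9996 to 59.7 in ieCre arteries (median 24.6). All 6 long-term ieET-1 mice thus lay above all 6 short-term ieET-1 mice, while in ieCre mice the times overlapped through mice 10 and 9958 at the short term. Means were 59.3 ± 12.9, 65.9 ± 14.5, 20.97 ± 6.55 and 32.6 ± 16.2 in the same order of groups (SD, n = 6 each).

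Igha (chr12:113254830-113260236), the IgA heavy chain, had values of 25.2 to 76.0 in long-term ieET-1 arteries (median 54.0) and of 36.9 to 111 in long-term ieCre arteries (median 59.1). Short-term values were 10.1 to 43.2 in ieET-1 arteries (median 15.7) and 9.81 to 124 in ieCre arteries (median 26.5). The short-term ieCre mice spanned the whole range of the series, from mouse 9955 at the bottom to mouse 10 at the top. Mouse 8987 was the highest of the short-term ieET-1 mice in Ighm, Igha and Igkc.

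Igkc (chr6:70726435-70726966), the only kappa constant gene, had values of 10.0 to 38.3 in long-term ieET-1 arteries (median 22.7) and of 23.5 to 62.3 in long-term ieCre arteries (median 35.8). At the short term they were 3.54 to 19.02 in ieET-1 arteries (median 10.4) and 5.56 to 52.9 in ieCre arteries (median 11.9). Apart from mouse 10, the short-term ieCre mice had Igkc values of at most 14.5, below every long-term ieCre mouse.

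**Figure D1:**
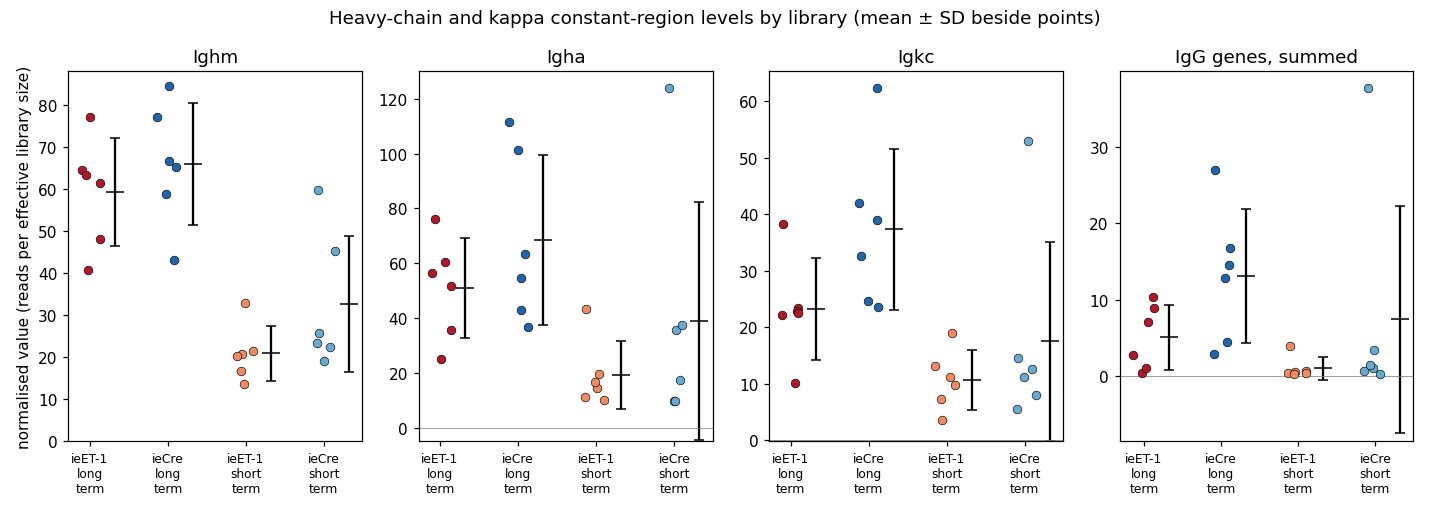
Values (reads over effective library size) of Ighm, Igha, Igkc and the summed IgG genes in each library by group, 1 point a mouse, with the group mean ± SD beside the points (n = 6). Ighm sits at 40.8 to 77.1 in long-term ieET-1 mice, above all short-term ieET-1 mice at 13.7 to 32.9.

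The IgG genes were low in most mice and high in a few. Ighg2b was 0.461 to 6.81 in long-term ieET-1 arteries (median 1.13) and 0.822 to 10.98 in long-term ieCre arteries (median 4.79). It was 0 to 1.22 in short-term ieET-1 arteries (median 0.272) and 0.0620 to 25.2 in short-term ieCre arteries (median 0.785). Mouse 10 alone made the top of the short-term ieCre range.

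Ighg2c, the heavy chain of IgG2c, was 0 to 2.29 in long-term ieET-1 arteries (median 0.736) and 0.488 to 11.8 in long-term ieCre arteries (median 3.77). It was 0 to 1.95 in short-term ieET-1 arteries (median 0.203) and 0 to 2.71 in short-term ieCre arteries (median 0.167). The long-term ieCre group held the highest values and overlapped every other group.

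Ighg1 averaged 1.33 ± 1.56 in long-term ieET-1 arteries, 2.44 ± 1.74 in long-term ieCre arteries, 0.183 ± 0.340 in short-term ieET-1 arteries and 1.83 ± 3.33 in short-term ieCre arteries (SD, n = 6 each). Ighg3 had 45 reads in 7 libraries, of which mouse 10 held 16, mouse 8089 held 15 and mouse 9490 held 8. Ighe, the IgE heavy chain, had 76 reads in 9 libraries, of which mouse 9486 held 34, mouse 8089 held 21 and mouse 8134 held 11. Ighe was not detected in any of the 6 short-term ieET-1 libraries, and a class as rare as this cannot be compared at this depth. IgD (Ighd) was not analysed here.

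Iglc2, the lambda constant gene in the set, was 0.371 to 2.80 in long-term ieET-1 arteries (median 1.06) and 0.610 to 2.57 in long-term ieCre arteries (median 1.79). It was 0.354 to 0.659 in short-term ieET-1 arteries (median 0.468) and 0.397 to 5.85 in short-term ieCre arteries (median 0.791). The short-term ieET-1 mice were close together, while mice 10 and 9958 (4.78) made the spread of the short-term ieCre mice.

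Summed over the 9 constant genes, the level was 140 ± 29.6 in long-term ieET-1, 187 ± 51.5 in long-term ieCre, 52.4 ± 24.7 in short-term ieET-1 and 98.8 ± 90.7 in short-term ieCre arteries (SD, n = 6 each). Without mouse 10, the mean of the short-term ieCre group is 62.5.

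The group means of the class makeup, given as shares of heavy chain constant reads, lay within their SDs of each other for IgA and IgM. Igha made up 43.4% ± 10.5 in long-term ieET-1, 45.1% ± 10.7 in long-term ieCre, 44.6% ± 7.24 in short-term ieET-1 and 43.8% ± 16.99 in short-term ieCre arteries. Ighm made up 51.9% ± 10.2, 46.4% ± 11.7, 53.4% ± 8.10 and 50.9% ± 18.7 in the same order (SD, n = 6 each). Between single mice the makeup varied far more than between group means, with Ighm at 27.0% of heavy chain reads in mouse 10 and 71.0% in mouse 9955.

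The IgG genes supplied 4.49% ± 3.97 of heavy chain constant reads in long-term ieET-1, 8.17% ± 4.46 in long-term ieCre, 1.98% ± 1.53 in short-term ieET-1 and 5.26% ± 6.05 in short-term ieCre arteries (SD, n = 6 each). Mouse 10 had the highest IgG share at 17.01%, with an exact (Clopper-Pearson) 95% interval of 15.7 to 18.4 that covers counting error only. Without it the short-term ieCre mean is 2.90%. These shares were not tested between groups.

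Light chain constant reads are those of Igkc and of Iglc2, the only lambda constant gene in the set. Over all libraries Igkc had 7161 reads and Iglc2 451, while kappa V segments had 6315 and lambda V segments 991. Lambda may thus be undercounted in the shares that follow. Kappa made up 94.5% ± 3.95 of light chain constant reads in long-term ieET-1, 95.8% ± 1.77 in long-term ieCre, 94.8% ± 2.12 in short-term ieET-1 and 89.3% ± 9.51 in short-term ieCre arteries (SD, n = 6 each). Mouse 9958 (short-term ieCre) was lowest with 70.2% (exact 95% interval 63.9 to 75.9). Its Iglc2 had 71 reads, and its lambda V segment Iglv2 had a value of 3.57.

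**Figure D2:**
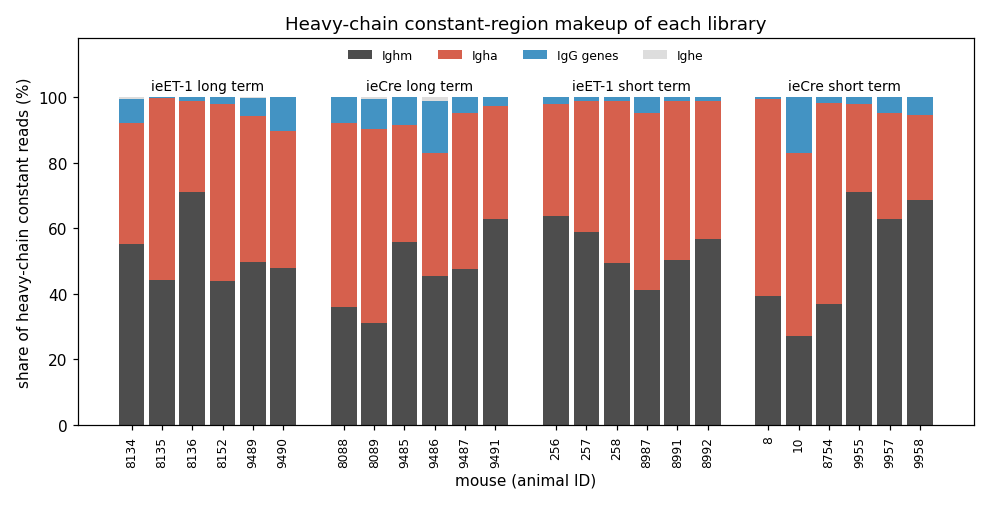
Share of heavy-chain constant reads on Ighm, Igha, the IgG genes and Ighe (percent) in each library, grouped by genotype and time, 1 bar a mouse. Ighm and Igha fill most of every bar, and the IgG part is largest in mouse 10 at 17.01%.

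Differences between groups were tested with limma on log2(value + 1) across all genes that reached a value of 1 in 6 or more libraries, which left 14544 genes and 16 of the 143 members. These 16 are 7 constant genes (Ighm, Igha, Igkc, Ighg1, Ighg2b, Ighg2c and Iglc2) and 9 V segments. The other 127 members were too low for this filter. Of the 16, 13 reached a value of 1 in more long-term than short-term libraries, so that a direction shared by the 16 says nothing. Adjusted p-values are over all tested genes, at a threshold of 0.05.

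The effect of endothelin-1 overexpression is read from ieET-1 against ieCre arteries at each time. At the long term 0 of 16 members passed, where 0.00688% of all tested genes passed. At an unadjusted p under 0.05 there were 4 members, against 2.99% of all genes, and edgeR and DESeq2 on the recovered reads also passed 0 members (0.00688% of all genes in each). Igkv6-23 reached the filter value in 1 ieET-1 and 5 ieCre long-term libraries, Igkv10-96 in 2 and 5, Ighv9-3 in 0 and 5 and Ighg2c in 3 and 4. These 4 thus entered the test more through ieCre arteries, and their number and direction are not evidence of a difference. Igkv6-23 had the smallest p. It was 0.307 to 1.148 in ieET-1 arteries (median 0.588) and 0.704 to 4.45 in ieCre arteries (median 1.56), so the genotypes overlapped, as they did for all 16 tested members (0.103% of all tested genes did not overlap). Its log2 difference was -0.76 (SE 0.21, 95% interval -1.19 to -0.32, adjusted p = 0.999 by limma). Within the ID ranges, its means were 0.631 in ieET-1 against 1.71 in ieCre mice (80xx to 81xx), and 0.674 in ieET-1 against 2.06 in ieCre mice (94xx). These ranges hold 4 ieET-1 and 2 ieCre mice, and 2 ieET-1 and 4 ieCre mice.

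Ighg2c had a long-term log2 difference of -1.30 (SE 0.45), Igkv10-96 of -0.70, Ighv9-3 of -0.79 and Igkc of -0.68, all with an adjusted p of 0.999 by limma. The level of Ighg2c within ID ranges was 0.883 in ieET-1 against 5.56 in ieCre mice (80xx to 81xx) and 0.905 in ieET-1 against 4.34 in ieCre mice (94xx). For Ighm the log2 difference was -0.15 with a 95% interval of -0.64 to 0.34.

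Over every gene with reads in at least 6 libraries (21879 genes, all 143 members), 43 members were higher and 100 lower in long-term ieET-1 than in ieCre arteries on the log2(value + 1) scale. The median log2 difference of the members was -0.06 by limma, against 0.00 for all genes, and -0.45 against 0.00 by edgeR, whose scale is not drawn together by the added 1. None of the 143 passed by limma or edgeR, where 0.00914% and 0.00457% of all genes did. At an unadjusted p under 0.05 there were 16 members by limma (3.89% of all genes) and 20 by edgeR (4.85% of all genes). Members share the cells they come from, so that these counts are a description and not 143 separate observations.

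At the short term, 0 of 16 members passed between ieET-1 and ieCre arteries, where 0.0825% of all tested genes passed. At an unadjusted p under 0.05 there were 2 members by limma (9.91% of all genes), 8 by edgeR (10.2%) and 8 by DESeq2 (10.9%), and 0 members passed by edgeR or DESeq2 (0.0481% and 0.282% of all genes). The genotypes overlapped for all 16, where 0.763% of all tested genes did not overlap. Of the 2 by limma, Ighm reached the filter value in all libraries, and Iglc2 in 0 ieET-1 and 2 ieCre libraries of this time. Iglc2 had a log2 difference of -0.78 (SE 0.33, 95% interval -1.46 to -0.09, adjusted p = 0.490 by limma), and Ighm of -0.54 (SE 0.24, adjusted p = 0.490). Within ID ranges, Ighm averaged 19.6 in ieET-1 against 41.6 in ieCre mice (1 to 3 digits) and 22.3 in ieET-1 against 28.2 in ieCre mice (4 digits), with 3 ieET-1 mice in each range and 2 and 4 ieCre mice. Iglc2 averaged 0.529 in ieET-1 against 3.39 in ieCre mice (1 to 3 digits) and 0.462 in ieET-1 against 1.60 in ieCre mice (4 digits).

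Igkv1-110, Ighg1 and Ighg2b were next, with log2 differences of -0.71, -0.75 and -0.94 and adjusted p of 0.535, 0.554 and 0.557 by limma. Igha had a log2 difference of -0.58 (95% interval -1.53 to 0.37) and Igkc of -0.43 (-1.24 to 0.39). Over all 143 members, 50 were higher and 93 lower in short-term ieET-1 than in ieCre arteries, with a median log2 difference of -0.05 against -0.01 for all genes by limma, and of -0.66 against -0.01 by edgeR. Of these 143, 0 passed by limma or edgeR (0.0411% and 0.032% of all genes), and 5 by limma and 29 by edgeR had an unadjusted p under 0.05 (8.18% and 8.2% of all genes). Adrenal cortex genes moved with genotype at this time: all 5 (Star, Cyp11a1, Cyp11b1, Cyp21a1 and Hsd3b1) fell, and their summed value was 2.68 to 73.0 in ieET-1 and 32.7 to 563 in ieCre arteries. The part of adjacent tissue in the immunoglobulin values was not tested.

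Whether the genotype difference itself changed with time was tested as an interaction. No member passed, as 0.0% of all tested genes did by limma, and none had an unadjusted p under 0.05, against 5.03% of all genes. By edgeR and by DESeq2, 1 member had an unadjusted p under 0.05 (5.36% and 5.71% of all genes) and 0 passed (0.0% and 0.0413%). The smallest p by limma belonged to Igkv6-23 (log2 difference of differences -0.59, adjusted p = 0.752) and Ighg2c (-1.22, adjusted p = 0.752). Ighm had 0.39 (95% interval -0.30 to 1.08), Iglc2 0.51 and Igkv10-96 -0.34.

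**Figure D3:**
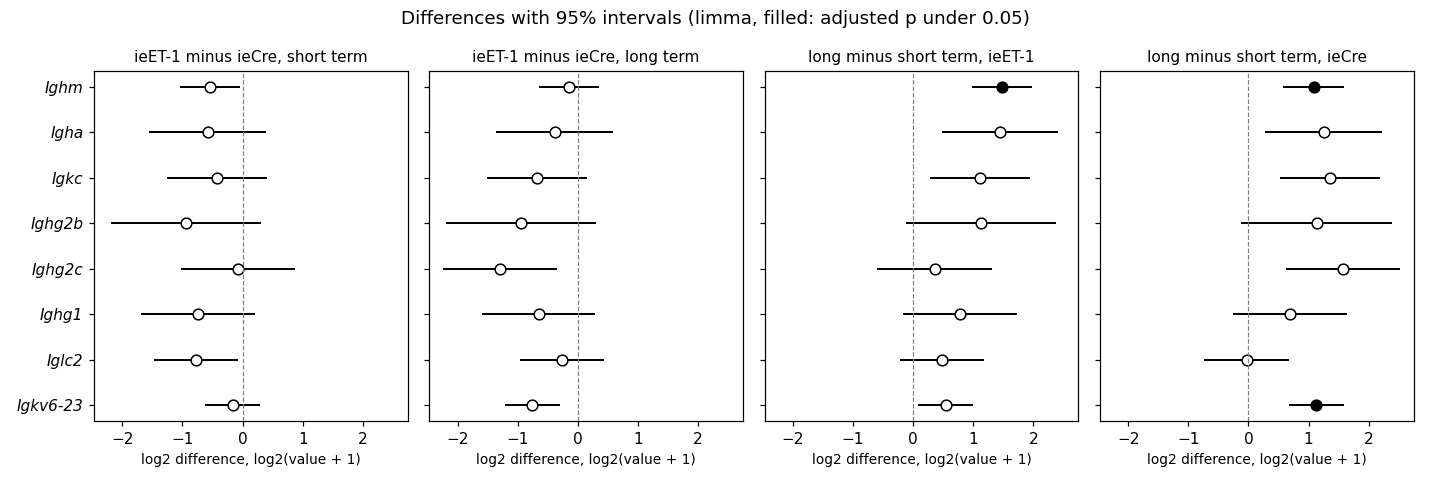
Log2 differences (log2(value + 1) scale) of the 7 tested constant genes and Igkv6-23 with 95% intervals by limma, in each comparison of 2 groups. Filled points passed at an adjusted p under 0.05: Ighm in both time comparisons and Igkv6-23 in ieCre arteries.

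By time, the other factor of the design, Ighm was higher at 3 months than at 16 days in both genotypes. In ieET-1 arteries it rose by 1.48 on the log2 scale (SE 0.24, adjusted p = 0.000524 by limma), with no overlap between the groups. It was the only one of 16 members to pass, where 8.66% of all tested genes passed, 5.27% rose and 3.52% had groups that did not overlap. A two-sided exact permutation test of its 12 libraries gave p = 0.00216, the smallest that 6 against 6 allows (0.0260 adjusted over 12 such tests of Ighm, Igha and Igkc).

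In ieCre arteries, 2 of 16 members rose with time, where 3.3% of all tested genes passed and 1.93% rose. Ighm rose by 1.09 (SE 0.24, adjusted p = 0.0113 by limma, exact permutation p = 0.0108, 0.0433 adjusted over the 12 tests). Without the 4 libraries high in Gm42418, Ighm was 1.04 higher with an adjusted p of 0.0623.

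Igkv6-23, a kappa V segment, also rose in ieCre arteries. It was 0.704 to 4.45 at the long term (median 1.56) and 0 to 0.620 at the short term (median 0.301), with no overlap, which was so for 2.61% of all tested genes. The log2 difference was 1.13 (SE 0.21, adjusted p = 0.00319 by limma). In ieET-1 arteries Igkv6-23 was 0.307 to 1.148 at the long term and 0 to 0.682 at the short term, with a log2 difference of 0.54 (adjusted p = 0.113). Only 2 of 6 short-term ieET-1 libraries and 4 of 6 short-term ieCre libraries had any read of it, so its short-term level lies near the limit of counting. It met the filter through 6 libraries at a value of 1 or more, all long term (5 ieCre mice and 1 ieET-1 mouse), so that it entered the test through the time at which it was high. In the fit over every gene with reads in at least 6 libraries its adjusted p was 0.00376, and with the filter raised to a value of at least 2 it was not tested.

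The other constant genes had higher means at the long term in most comparisons but did not pass. Igha had a log2 difference of 1.45 in ieET-1 arteries (SE 0.46, adjusted p = 0.0507) and 1.25 in ieCre arteries (adjusted p = 0.141), and Igkc had 1.105 in ieET-1 arteries (adjusted p = 0.0807) and 1.35 in ieCre arteries (SE 0.40, adjusted p = 0.0570), all by limma. In exact permutation tests, Igha gave p = 0.00649 in ieET-1 arteries (0.0390 adjusted over the 12 tests) and 0.0714 in ieCre arteries, and Igkc 0.0173 and 0.0216 (0.0519 adjusted for both). Without mouse 10, 6 members passed in ieCre arteries (Igha, Ighg2b, Ighg2c, Ighm, Igkc and Igkv6-23), where 4.07% of all tested genes passed, and 3 in ieET-1 arteries (Igha, Ighm and Igkc), where 8.32% did. Ighg2c differed by 1.57 in ieCre arteries (adjusted p = 0.0541) and by 0.36 in ieET-1 arteries (adjusted p = 0.659). Ighg2b differed by 1.13 in ieET-1 (adjusted p = 0.240) and 1.13 in ieCre arteries (adjusted p = 0.326), and Ighg1 by 0.78 and 0.69. Iglc2 had 0.48 in ieET-1 arteries and -0.03 in ieCre arteries, and the sign of the second was positive with a pseudocount of 0.5.

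Igkv10-96 differed by 0.68 in ieCre arteries (adjusted p = 0.140 by limma). Over all 143 members, 117 were higher at the long term and 26 lower in ieET-1 arteries, and 117 higher and 26 lower in ieCre arteries, with median log2 differences of 0.12 and 0.11 against 0.02 and 0.01 for all genes by limma. The 143 were kept for reads in at least 6 libraries, and more V segments had reads in long-term libraries. The rule thus leans to the long term, and these counts, like those by genotype, are a description only. By edgeR the medians were 1.105 and 0.91 against 0.03 and 0.01 for all genes, since the added 1 of the limma scale understates changes of low genes. In the fit over all 143 members, limma passed 3 members in ieET-1 arteries (4.87% of all genes) and 2 in ieCre arteries (1.74%), and edgeR 3 in ieET-1 (5.33%) and 3 in ieCre arteries (1.59%). The added members were Ighv1-54 (log2 difference 0.38, adjusted p = 0.00520) and Igkv6-13 (0.18, adjusted p = 0.0189) in ieET-1 arteries by limma, and Igkv4-50 in ieCre arteries by edgeR (adjusted p = 0.0360). Igkv6-13 had 15 reads in all, and Igkv4-50 had 63.8% of its summed value in mouse 9485. As the ID ranges were drawn within each time, no time comparison was made within a range.

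Among V segments, Ighv1-81 had the highest mean value of the heavy chain (2.99), followed by Ighv1-22 (0.759), Ighv1-26 (0.670), Ighv9-3 (0.631) and Ighv6-3 (0.581). In the kappa chain Igkv1-117 led (3.52), followed by Igkv1-110 (1.81), Igkv10-96 (0.900), Igkv4-59 (0.898) and Igkv6-23 (0.750). In the lambda chain Iglv1 had 2.29, Iglv2 0.668 and Iglv3 0.107. Reads per V segment were few, and no V segment but Igkv6-23 passed in the fit over 14544 genes.

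By family, Ighv1, 33 of the 63 heavy V members, held 64.8% of heavy V reads, and Igkv1, with 4 of 60 members, held 28.0% of kappa V reads. Without Ighv1-81, Ighv1 held 56.3% of the remaining heavy V reads, with 32 of 62 members (51.6%). Of the 1766 Igkv1 reads, 1707 were on Igkv1-117 and Igkv1-110, and without these Igkv1 held 1.28% of kappa V reads, so the family share restates those segments. Igkv1 made up 27.7% ± 10.2 of kappa V reads in long-term ieET-1, 18.9% ± 9.76 in long-term ieCre, 40.2% ± 20.8 in short-term ieET-1 and 36.1% ± 16.1 in short-term ieCre arteries (SD, n = 6 each). The spreads overlap, and these shares were not tested. The 31 heavy V members nearer to the J segments held 35.6% of heavy V reads, and the 30 nearer kappa V members 39.7% of kappa V reads.

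Ighv1-81 was the highest heavy V segment in 15 of 24 libraries and Igkv1-117 the highest kappa V segment in 14, and both led together in 10. These 10 comprise 4 of 6 long-term ieET-1, 1 of 6 long-term ieCre, 2 of 6 short-term ieET-1 and 3 of 6 short-term ieCre libraries. Segments that each lead in most libraries also lead together in many without any link between them, and a link was not tested. In mouse 8992 (short-term ieET-1), Ighv1-81 held 33 of 45 heavy V reads (73.3%, exact 95% interval 58.1 to 85.4) and Igkv1-117 held 68.9% of kappa V reads (57.1 to 79.2). In mouse 8 (short-term ieCre) the shares were 55.1% and 54.4%, and in mouse 257 (short-term ieET-1) 35 of 70 heavy V reads and 46.1% of kappa V reads.

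The share of Ighv1-81 in heavy V reads had medians of 18.2% in long-term ieET-1, 9.89% in long-term ieCre, 26.5% in short-term ieET-1 and 17.8% in short-term ieCre arteries. For Igkv1-117 in kappa V reads the medians were 19.2%, 8.40%, 20.2% and 12.3% in the same order. Mouse 9955 (short-term ieCre) had 0 of 33 heavy V reads on Ighv1-81, where 3 reads would be a share of 9.09% and the exact 95% interval reaches up to 10.6%. That a heavy and a kappa segment lead in the same mouse was seen after the values were known, and their pairing in single cells was not measured.

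Other V segments were held by 1 mouse. Of the 126 V members, 8 had over 50% of their summed value in a single library. Ighv1-22 had 191 of its 247 reads in mouse 10, with a value of 13.97 there and at most 0.610 elsewhere. Ighv1-5 had 81.1% and Ighv1-58 65.7% of their value in mouse 8088, Igkv12-98 75.2% in mouse 9490, Igkv4-86 54.2% in mouse 9489 and Ighv6-7 51.5% in mouse 8754. Large differences of a single V segment between groups can thus come from 1 library.

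V segments with reads numbered 80.7 ± 17.8 in long-term ieET-1, 89.0 ± 14.5 in long-term ieCre, 50.5 ± 18.6 in short-term ieET-1 and 63.2 ± 22.8 in short-term ieCre arteries (SD, n = 6 each). V reads averaged 487, 776, 257 and 522 in the same order. At 78 V reads a library, the number held by the shallowest, the expected count of segments was 38.7 ± 3.66, 37.8 ± 2.73, 30.9 ± 8.04 and 32.9 ± 5.11. The spreads overlap at this equal depth.

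**Figure D4:**
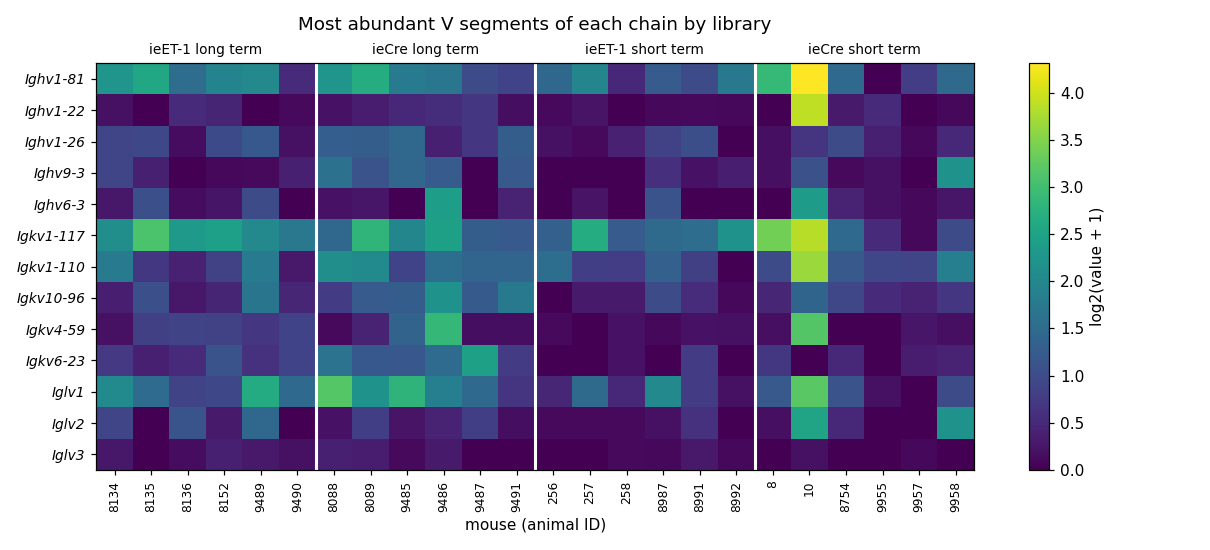
Level (log2(value + 1), colour scale) of the most abundant V segments of each chain (rows) in each mouse (columns), grouped by genotype and time. Ighv1-81 and Igkv1-117 are bright across the groups, and Ighv1-22 is bright in mouse 10 only, with a value of 13.97.

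J segments drew few reads: 104 over 4 heavy J segments and 75 over 5 kappa J segments, at most 5 of any segment in a library. Ighj1 had 34 reads, Ighj2 24, Ighj3 16 and Ighj4 30. Igkj3, the segment without the core, had 22 reads in 16 libraries, against 6 for Igkj1, 14 for Igkj2, 14 for Igkj4 and 19 for Igkj5. Whether these reads come from joined or from unjoined segments cannot be read from counts.

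Heavy J reads were not in step with constant reads across groups, which was seen after the values were known. They numbered 22 in long-term ieET-1, 26 in long-term ieCre, 38 in short-term ieET-1 and 18 in short-term ieCre arteries. Per 1000 heavy chain constant reads, they came to 0.513 to 4.34 in long-term ieET-1 (median 3.53), 0 to 3.79 in long-term ieCre (median 2.32), 3.59 to 22.9 in short-term ieET-1 (median 16.2) and 0 to 5.32 in short-term ieCre mice (median 4.12). Mice 256, 257, 258 and 8992, all short-term ieET-1, lay at 15.9 or above, and no other mouse exceeded 5.64. Of their ID ranges, 1 to 3 digits also holds the ieCre mice 8 and 10, at 4.17 and 1.32. With 3 to 10 heavy J reads a library in that group, no test was made.

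Antibody-secreting cells were followed through 16 genes, of which 13 were tested. None passed by genotype, and 1, Sdc1, the plasma cell surface proteoglycan also found on epithelium, was higher at the long term in ieET-1 arteries (mean value 72.3 at the long term and 47.8 at the short term, log2 difference 0.57, adjusted p = 0.0467 by limma). Of all tested genes, 0.0825% passed by genotype at the short term and 0.00688% at the long term. By time, 8.66% passed in ieET-1 and 3.3% in ieCre arteries. With so few genes a list, the counts here and in the lists that follow are a description only. The summed value of the 16 genes was 521 to 710 in long-term ieET-1, 520 to 824 in long-term ieCre, 508 to 612 in short-term ieET-1 and 488 to 680 in short-term ieCre arteries. None of the 16 was at 0 in all libraries. Jchain, one of the 16, reached 43.7 at its highest, in a short-term ieCre mouse. The sums thus rest mostly on other genes of the list and do not show the level of Jchain.

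Of 19 B cell genes, 10 were tested and none passed by genotype, as was so for nearly all tested genes. By time, 2 passed in ieCre arteries, where 3.3% of all tested genes did, and 1 in ieET-1 arteries, where 8.66% did. Both Cd79b and Blk rose with time in ieCre arteries. There Cd79b, a B cell receptor subunit, had a mean value of 3.32 at the long term, against 1.11 at the short term (log2 difference 0.93, adjusted p = 0.0474 by limma), and Blk, a B cell kinase, one of 1.55 against 0.548 (0.71, adjusted p = 0.00631). In ieET-1 arteries Blk was higher too, at 1.46 against 0.628 (0.59, adjusted p = 0.0122). Both short-term means of Blk lay below the filter value of 1 and both long-term means above it. Blk may thus have entered the test more through the time at which it was high. The 19 genes summed to 144 to 198 in long-term ieET-1, 125 to 221 in long-term ieCre, 136 to 175 in short-term ieET-1 and 131 to 192 in short-term ieCre arteries. Cd79a, the partner of Cd79b, had means of 0.419, 0.691, 0.290 and 0.330 in the same order, near the floor of 3 reads. Cd79a, Cd79b and Blk were thus a small part of the summed values. The sums rest mostly on other genes of the list and do not show the level of these genes.

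Few genes of the machinery around the antibodies passed. Of 12 immunoglobulin receptors and transporters 8 were tested and none passed in any comparison by limma, nor did any of 8 tested among 15 genes of V(D)J recombination and class switching. Of 15 survival and homing signals 9 were tested, and Tnfsf13b, the B cell survival factor BAFF, rose with time in ieET-1 arteries (mean value 4.93 at the long term and 3.00 at the short term, log2 difference 0.57, adjusted p = 0.0335). Of 13 T cell genes 8 were tested, and Cd4 rose with time in ieET-1 arteries (mean value 3.73 at the long term and 1.57 at the short term, log2 difference 0.83, adjusted p = 0.0351 by limma). The 13 genes summed to 12.9 to 37.3 in long-term ieET-1, 18.2 to 32.004 in long-term ieCre, 8.93 to 19.9 in short-term ieET-1 and 9.40 to 21.4 in short-term ieCre arteries.

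Genes of neighbouring tissue were set beside these. Of 8 lymph node genes 4 were tested, and Ltb, a lymphotoxin of lymphocytes, rose with time in ieCre arteries (mean value 3.03 at the long term and 0.991 at the short term, log2 difference 0.98, adjusted p = 0.00383 by limma). Its short-term mean lay just below the filter value of 1, so Ltb too may have entered the test more through the long term. The summed value of the 8 genes was 8.35 to 30.2 in long-term ieET-1, 5.96 to 30.5 in long-term ieCre, 5.17 to 10.2 in short-term ieET-1 and 4.78 to 12.0 in short-term ieCre arteries, and Glycam1 reached at most 1.14. Of 8 intestinal epithelial genes 4 were tested and none passed; they summed to 12.97 to 256, 15.2 to 28.9, 22.1 to 43.1 and 18.8 to 53.2 in the same order, with the 256 in mouse 8135. Pancreatic acinar genes (8 of 10 tested, none passed) summed to 1320 to 60860, 416 to 27824, 976 to 19738 and 99.5 to 26580. Among 7 adipocyte genes, 3 rose with time in ieCre arteries (Cidec, Fabp4 and Lep), and 3 rose (Cidec, Lep and Plin1) and 1 fell (Cfd) in ieET-1 arteries. Lep, the fat hormone leptin, averaged 119 at the long term and 17.46 at the short term in ieET-1 arteries, and 112 and 14.5 in ieCre arteries. The 7 genes summed to 1133 to 2706 in long-term ieET-1, 1287 to 2356 in long-term ieCre, 1333 to 2326 in short-term ieET-1 and 1221 to 1741 in short-term ieCre arteries. No smooth muscle gene passed, and of 6 endothelial genes Vwf was lower at the long term in ieCre arteries. The part of lymph node, fat or other adjacent tissue in the rise of Ighm was not tested.

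Jchain, which links IgA and IgM into polymers and is made by antibody-secreting cells, ran closest to the light chain. It had values of 10.5 to 32.4 in long-term ieET-1 (median 16.5), 16.4 to 29.7 in long-term ieCre (median 23.01), 3.83 to 19.5 in short-term ieET-1 (median 9.72) and 3.18 to 43.7 in short-term ieCre arteries (median 11.6). It did not pass in any comparison (log2 difference 0.90 by time in ieET-1 arteries, adjusted p = 0.164 by limma, and 0.98 in ieCre arteries, adjusted p = 0.201).

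By Spearman correlation with Igkc over the 24 libraries, Jchain ranked 1 of 14528 tested genes that are no member, at 0.943. It was followed by 2210016F16Rik (0.898), D130020L05Rik (0.857), Diras2, Rpl6, Prkcb, Prelid1, Edf1, 1110008P14Rik and Dtnbp1 (0.825). Jchain also ranked 1 with Igha (0.893), and 294 with Ighm (0.705). The genes most like Ighm were Polr2e (0.888), Dmrt2 (0.876) and Ndufv1 (0.875).

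On log2(value + 1), Igkc and Jchain had Pearson r = 0.946 and Spearman rho = 0.943 over 24 libraries, both with a permutation p of 1e-05, the smallest that the permutations drawn can give (2e-05 adjusted over 4 relations). Igha and Jchain had r = 0.907 and rho = 0.893 with the same p. Without the 2 libraries farthest from the median of the first gene, r was 0.930 for Igkc and 0.883 for Igha. As deviations from the group means, r was 0.936 and 0.862. Within ID ranges, r for Igkc was 0.929 (4 digits, 7 libraries), 0.962 (80xx to 81xx, 6 libraries) and 0.824 (94xx, 6 libraries), and for Igha 0.922, 0.896 and 0.934. The range of 1 to 3 digits has 5 libraries and was given no r.

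With Cd79a, a subunit of the B cell receptor that plasma cells make little of, the relation was looser over all libraries. Within ID ranges, the r of Igkc with Cd79a varied widely and was not below that with Jchain in every range. Those r values are given in the last section. The group means of Cd79a lay near the floor, as given above, where counting error is large, while Jchain lay well above it in every library. The part of counting error in the looser relation was not tested, so this contrast does not tell plasma cells from B cells. Igkc had r = 0.535 (permutation p = 0.00714) and rho = 0.495 (p = 0.0157), and Ighm r = 0.539 (p = 0.00647, adjusted 0.00714) and rho = 0.503 (p = 0.0131). Without the 2 farthest libraries r was 0.503 and 0.492. As deviations from the group means they were 0.321 (permutation p = 0.125) and 0.398 (permutation p = 0.055), so the relations missed the threshold within groups. Libraries share depth and tissue makeup, which a correlation across them carries too.

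**Figure D5:**
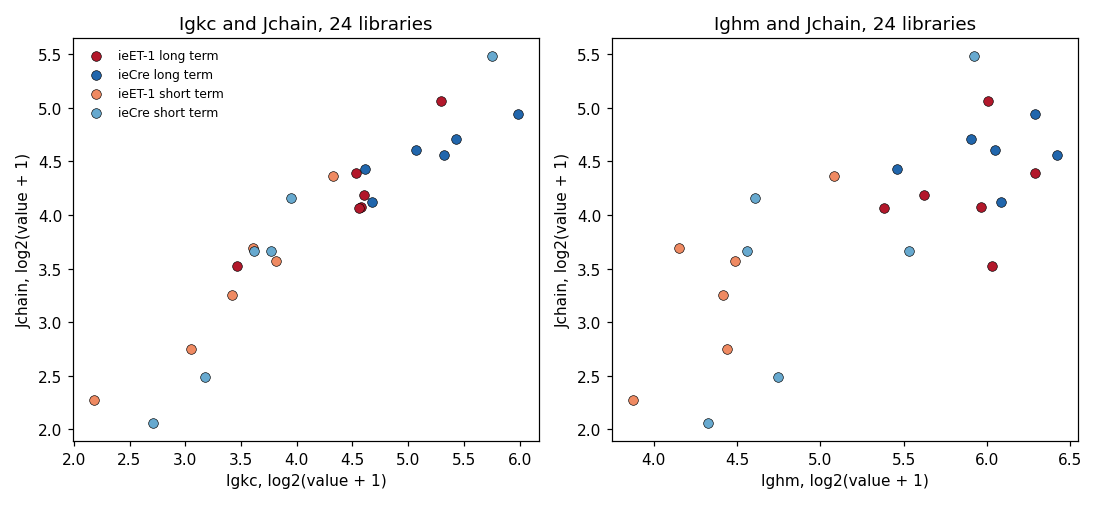
Jchain against Igkc (left) and against Ighm (right) in 24 libraries, log2(value + 1) on both axes, coloured by group. Jchain follows Igkc (r = 0.946) through all 4 groups, and mouse 10 is the highest in Jchain with a value of 43.7.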

How the data were processed

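Total RNA of mesenteric arteries was sequenced per the labels' protocols, after removal of ribosomal RNA, as stranded libraries, 1 library a mouse. The deposited table holds 1 normalized signal per gene and library, which the authors made, per the values themselves, by dividing whole reads by an effective library size. The submitters' processing notes name STAR 2.3.1, edgeR 3.6.8 and R 3.2.3 beside bcl2fastq 1.8.4 and FastQC. The build, the annotation, the counter and its strand setting were not given in the sources used here. Of 29020 gene rows, 28403 were given a symbol, through the mouse GENCODE release M21 on GRCm38. For IDs absent from that release, a second list of gene names was used. The release may differ from the annotation used by the authors. That a row named ID is no gene was seen from its name, and it was left out.

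Whole reads were recovered from the signal: 100.0% of 482036 positive values were whole within 0.001. The values had been assumed to be near CPM, and the test on the log scale was kept for them. No pair of libraries was alike within sampling noise (276 pairs, lowest chi-square per degree of freedom 13.1). Members are immunoglobulin rows with reads in at least 6 libraries. Groups were taken from the labels. The main test was limma 3.58.1 with a variance trend on log2(value + 1), which understates changes of low genes, in R 4.3.3. It used 1 means model over all 24 libraries, with Benjamini-Hochberg adjustment within each comparison at 0.05. edgeR 4.0.16 (quasi-likelihood) and DESeq2 1.42.0 on recovered reads, other pseudocounts and filters, an ID range term, library weights, quantile normalization and leaving out libraries were alternatives. Exact permutation tests and correlations used Python 3.11.15, numpy 2.4.6, scipy 1.17.1 and pandas 2.3.3, and figures matplotlib 3.10.9. On data simulated for the short-term genotype comparison (14544 genes), 79 of 100 genes set to differ 2-fold and 94 of 100 set to differ 4-fold were called, beside 4 false calls. The changed genes were drawn at random from all 14544. These rates therefore do not hold for members with a wide spread, such as Ighg2b, whose SE in that comparison was 0.60.

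Named genes are all constant and J genes, the 5 highest V segments of each chain, segments that passed, the 5 smallest p of each comparison, and the 10 genes most like Igkc. The 3 genes most like Ighm are named too. The members and the 13 gene lists were chosen with earlier results of these data known. Sequences are from the transcripts of the same GENCODE release. P-values measure the spread between mice.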

Additional observations from a re-analysis of the deposited data

Results flagged for a closer look

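Of 119 groups of 6 libraries looked at, 25 had a highest or lowest library set apart from the other 5 by more than Dixon's 95% critical value. For normally distributed values, chance flags about 1 in 20 groups. Many groups here hold few reads, and a single read was enough to flag mouse 256 in Ighg3. The chance rate for these values is thus not known, and the number of flags is a description only. Members of 1 mouse are also not independent. Mouse 10 (short-term ieCre) accounts for 10 of them: Ighg2b at 25.2, Ighg1 at 8.55, Ighg3 at 1.17, Ighv1-22 at 13.97, Ighv6-3 at 4.24, Igkv1-110 at 11.7, Igkv4-59 at 7.97, Iglv1 at 8.26, the summed constant level at 280.1 and the IgG share of heavy chain constant reads at 17.01%. Mouse 8987 (short-term ieET-1) stood above its group in Ighg2c at 1.95, Ighg1 at 0.865, Ighv6-3 at 1.153, the summed constant level at 99.8 and the IgG share at 5.03%.

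Among the other flags, Ighg3 was 0.594 in mouse 9490 (long-term ieET-1), 1.016 in mouse 8089 (long-term ieCre) and 0.0744, a single read, in mouse 256 (short-term ieET-1). Ighv9-3 was 0 in mouse 9487 and Ighv6-3 4.36 in mouse 9486, both long-term ieCre. Igkv4-59 was low in mouse 8134 (long-term ieET-1) at 0.143. Mouse 8991 (short-term ieET-1) was high in Igkv6-23 at 0.682 and in Iglv2 at 0.530. The kappa share of light chain constant reads was 70.2% in mouse 9958, and the highest V segment held 31.2% of V reads in mouse 8, both short-term ieCre. The causes were not tested.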

How the results depend on the processing

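Between genotypes and for the interaction, 0 tested members passed under every alternative run. By time in ieCre arteries, the 2 passing members became 1 with a filter at a value of 2 (Ighm; 3.5% of all genes passed), 1 without the 4 libraries high in Gm42418 (Igkv6-23; 1.83%), 7 with library weights (15.3%), and 2 to 6 when leaving out 1 library, 6 without mouse 10. By time in ieET-1 arteries, the 1 passing member (Ighm) became 3 with every gene tested by limma, 2 with the filter at 2 (9.21% of all genes), 3 with every gene by edgeR, 2 by DESeq2 (13.1%), 2 with only the groups compared (4.52%), and 1 to 3 when leaving out 1 library. It was 3 without mouse 10 and 2 without mouse 9955, 9957, 8987 or 8136. The cause of these changes was not tested. The log2 difference of Iglc2 by time in ieCre arteries turned positive with a pseudocount of 0.5 (0.020) and ran from -0.21 to 0.25 without 1 library. That of Ighg2c by genotype at the short term ran from -0.30 to 0.19 without 1 library.

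V segments with reads fell to 38.7 in long-term ieET-1, 37.8 in long-term ieCre, 30.9 in short-term ieET-1 and 32.9 in short-term ieCre arteries at a fixed number of V reads, as fewer reads are drawn. Within ID ranges of 6 or 7 libraries, these relations missed the threshold by exact permutation tests adjusted over 4 relations: Igkc with Jchain at r = 0.962 and 0.824, Igha with Jchain at 0.896, Igkc with Cd79a at 0.588, 0.690 and 0.935, and Ighm with Cd79a at 0.727, 0.163 and 0.646. As deviations from the group means, those with Cd79a had r = 0.321 and 0.398. No paired analysis was possible because no number pairs mice across groups. An ID range term, with ranges drawn within each time, could not be fitted for time. The exact permutation tests and the exact count of V segments at equal depth were chosen after seeing the data. Depth limits single V and J segments most, many of which have under 3 reads in a library.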
